A study of Mus musculus with 12 samples.

Results

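The transcripts of the Id proteins Id2 and Id3 and of the E proteins Tcf3, Tcf4 and Tcf12 were followed across 4 groups of iNKT cells (invariant natural killer T cells), which see lipid antigen on CD1d through a near-invariant receptor. These 5 genes were taken by symbol from the 24781 gene symbols of the deposited expression table, and all 5 were found in it. The groups were lung CD244+, lung CD244-, thymus CD244+ and thymus CD244- cells, each with 3 libraries of 100 sorted cells. All cells came from mice 6 weeks of age, and were sorted as TCRbeta+ NK1.1+ CD1d tetramer+ CXCR6+. The labels name no strain, treatment or engineered allele. CD244+ cells are called C2 by the study and CD244- cells C1. Replicates are described as separate library preparations with no animals named, so a p-value reflects the spread of the libraries alone, which may be technical.

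E proteins are basic helix-loop-helix transcription factors that bind the E-box DNA motif as dimers. Id proteins have the helix-loop-helix but no basic region, so that a dimer of an Id protein with an E protein does not bind DNA. In developing T cells of mice, receptor signalling raises Id3, Id2 supports the effector forms of T and innate-like lymphocytes, and the E protein HEB, made from Tcf12, is needed for iNKT cells to form in the thymus. Tcf3 encodes the E2A proteins E12 and E47. Tcf4 here is the gene of E2-2, the E protein known for the identity of plasmacytoid dendritic cells, and not Tcf7l2, the Wnt pathway gene whose protein has also been called TCF4.

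The Id genes are shown by their promoters, because one of the pair was abundant and the other almost absent in these cells. Each window runs from 250 bases before to 50 bases after the RefSeq gene start (GRCm38.p6) and is written 5′ to 3′ on the gene's strand, with any E-box, CANNTG, in capitals. The Id2 window is chr12:25096043-25096342 on the minus strand and the Id3 window is chr4:136143572-136143871 on the plus strand.
Id2: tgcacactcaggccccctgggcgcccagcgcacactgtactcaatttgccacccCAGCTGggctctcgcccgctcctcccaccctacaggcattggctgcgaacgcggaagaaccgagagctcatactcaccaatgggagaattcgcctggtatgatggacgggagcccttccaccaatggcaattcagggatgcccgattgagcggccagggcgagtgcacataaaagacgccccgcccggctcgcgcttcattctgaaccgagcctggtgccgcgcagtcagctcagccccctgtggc
Id3: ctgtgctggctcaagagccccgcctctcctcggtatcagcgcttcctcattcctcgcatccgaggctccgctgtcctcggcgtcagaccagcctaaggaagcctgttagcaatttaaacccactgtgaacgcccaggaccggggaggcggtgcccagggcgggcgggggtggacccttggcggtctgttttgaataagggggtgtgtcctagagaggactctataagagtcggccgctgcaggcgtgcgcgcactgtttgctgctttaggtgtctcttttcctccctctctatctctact
The Id2 window held 1 E-box, CAGCTG, which begins 196 bases before the gene start, and the Id3 window held 0. On both strands, CANNTG was present in 72.3% of the 32851 promoter windows of the same length and CAGCTG in 16.3%. The Tcf3 window held 1 E-box, and the 3 windows of Tcf12 held 1, 2 and 1. These matches describe letters in a window and were not linked to any measured value.

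In the annotation of the same build (GENCODE M21), Id2 lies on chromosome 12 at 25093799 to 25097140 (ENSMUSG00000020644.9) and Id3 on chromosome 4 at 136143497 to 136145755 (ENSMUSG00000007872.3). Tcf3 lies on chromosome 10 at 80409514 to 80433647 (ENSMUSG00000020167.14), Tcf4 on chromosome 18 at 69343356 to 69689079 (ENSMUSG00000053477.17) and Tcf12 on chromosome 9 at 71842688 to 72111871 (ENSMUSG00000032228.16). RNA was primed at the poly(A) tail with a molecular barcode, per the labels, so levels are given as molecules, or as molecules per 10000 of the library, without division by gene length. Whether an exon or intron gave a molecule is not recorded in the table.

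The libraries held 42520 to 51436 molecules in lung CD244+, 29696 to 32196 in lung CD244-, 56615 to 71789 in thymus CD244+ and 60120 to 67478 in thymus CD244- cells. All 11 T cell receptor complex genes of the marker list that the table holds, and all 5 iNKT and NKT1 markers, had molecules in every group. Lung CD244+ libraries stood apart. Their 12 myeloid markers summed to 59.9 to 117 molecules per 10000, against 0 to 0.337 in the other 9 libraries, and their T cell receptor complex genes to 12.9 to 24.2, against 26.5 to 40.0. Lung CD244+ libraries 2 and 3 also had 1 molecule each of Cxcr6, a gene of the sort gate, where library 1 had 15. The members' calls that rest on this group are therefore also given with library 1 alone, where its spread is taken to equal that of the remaining groups. Library 1 itself had a myeloid sum of 59.9 and a T cell receptor complex sum of 24.2 per 10000. A call that holds with library 1 alone is thus not free of the myeloid transcripts. Cd244 had 1, 1 and 0 molecules in lung CD244+ and 8, 1 and 4 in thymus CD244+ libraries, and none in the CD244- libraries of either tissue. Fewer cells of a type and less RNA per cell cannot be told apart in such pooled cells.

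Id2 was by far the most abundant of the 5 genes in every group, and its level split the libraries by tissue. Lung CD244+ libraries 1, 2 and 3 held 25, 17 and 23 Id2 molecules, and the lung CD244- libraries 17, 20 and 15. The thymus CD244+ libraries held 135, 116 and 115, and the thymus CD244- libraries 146.5, 143 and 109 (the recovered molecules are not always whole numbers). Every lung library lay below every thymus library, also per 10000 molecules, where the highest lung value was 6.63 and the lowest thymus value 18.1.

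**Figure D1:**
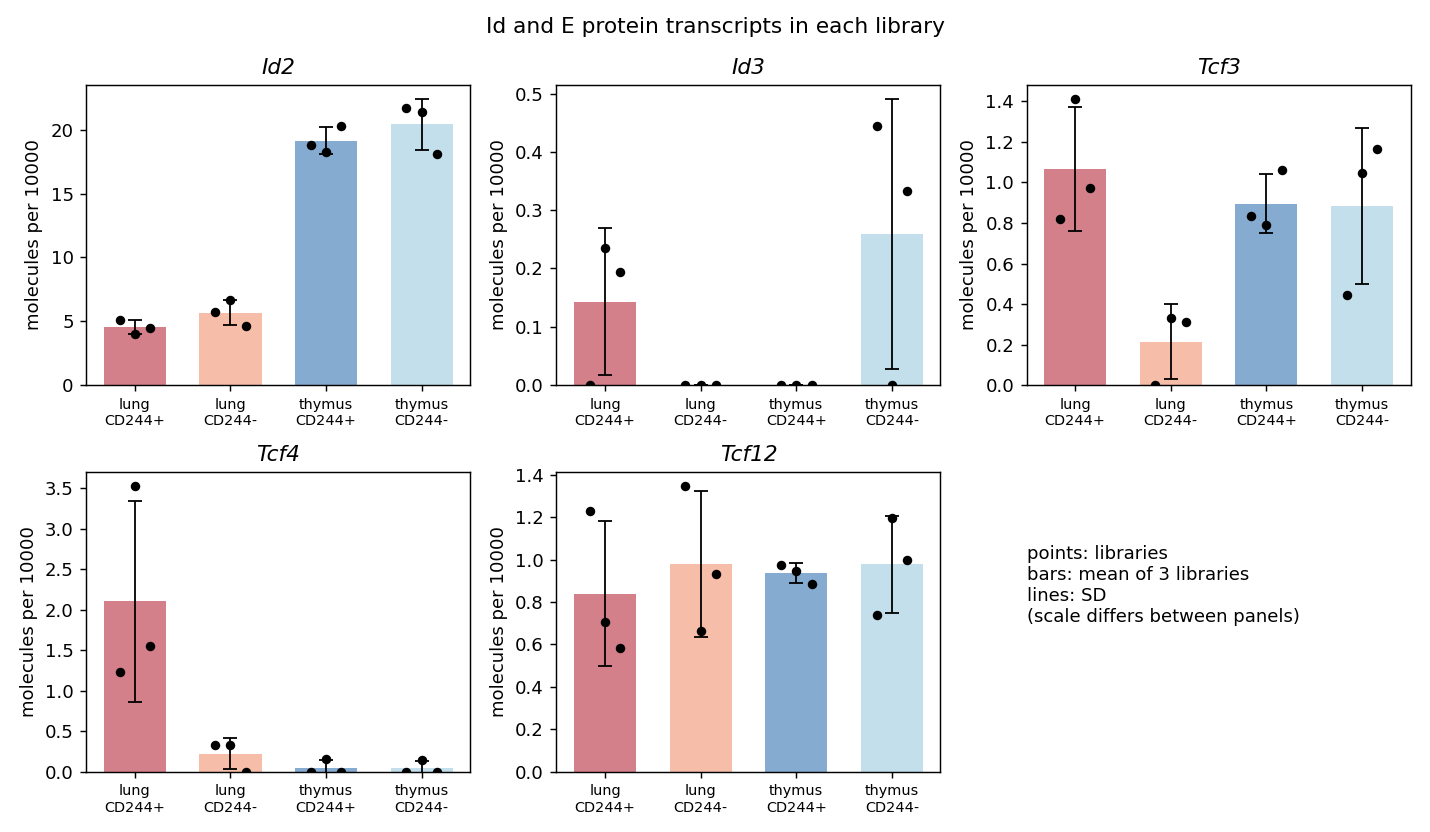
Molecules per 10000 of Id2, Id3, Tcf3, Tcf4 and Tcf12 (vertical axes, separate scales) in lung CD244+, lung CD244-, thymus CD244+ and thymus CD244- cells; points are libraries, bars means of 3 libraries and lines SD. Id2 averaged 4.53 and 5.67 in the lung groups and 19.1 and 20.4 in the thymus groups, Tcf4 was high in lung CD244+ cells, and Tcf12 was near 1 in all 4 groups.

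Per 10000 molecules Id2 averaged 4.53 ± 0.562 in lung CD244+ against 19.1 ± 1.05 in thymus CD244+ cells, and 5.67 ± 0.989 in lung CD244- against 20.4 ± 1.98 in thymus CD244- cells (SD, n = 3 each). It fell in lung in both subsets. The log2 fold change with its SE was -1.98 ± 0.18 in CD244+ cells (limma adjusted p = 1.69e-13) and -1.78 ± 0.18 in CD244- cells (limma adjusted p = 2.74e-11). They were computed on log2(value + 1) after all columns were brought to a common total, a scale that shrinks the changes of low genes. As a ratio of shares of all molecules, lung over thymus, Id2 stood at 0.239 in CD244+ cells (exact 95% interval 0.180 to 0.311, counting error only) and 0.276 in CD244- cells (0.203 to 0.369). Ranked by p among 5199 tested genes, it was the 4th of the genes lower in lung CD244+ cells and the 6th of those lower in lung CD244- cells. The tissue comparisons were past the threshold for Id2 under all 25 other settings, including lung CD244+ library 1 alone (-1.82 ± 0.22, limma adjusted p = 9.41e-07).

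The difference was also present relative to T cell receptor complex genes, which were themselves lower in lung CD244+ libraries. Per 100 molecules of the 11 receptor complex genes, Id2 had 26.4 ± 4.90 in lung CD244+ and 66.8 ± 8.61 in thymus CD244+ cells, and 15.0 ± 2.72 in lung CD244- and 60.8 ± 8.58 in thymus CD244- cells (SD, n = 3 each). In lung CD244- cells 11 of 12 myeloid markers had no molecule. Any part of myeloid RNA or of cell content in the Id2 difference was not tested.

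Between the subsets the Id2 difference did not pass the test in either tissue. In lung the difference of CD244+ minus CD244- cells was -0.29 ± 0.18 on the log2 scale (95% interval -0.66 to 0.07, limma adjusted p = 0.377), and in thymus -0.09 ± 0.18 (-0.46 to 0.28, limma adjusted p = 1). Groups overlapped in both tissues. With columns set to equal sums of receptor complex genes, the lung difference turned to 0.75 ± 0.25 (limma adjusted p = 0.0150), in a setting that moved the median of all tested genes to 0.69. The subset difference in lung minus that in thymus was -0.20 ± 0.26 (limma adjusted p = 0.801). From low to high, the levels ran lung CD244+, lung CD244-, thymus CD244+ and thymus CD244-, and only the step from lung to thymus passed the test or separated the libraries.

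The 3 tested genes whose log2 values were most like those of Id2 across the 12 libraries were ribosomal protein genes. They were Rpl32 (Pearson r = 0.987), Rps26 (0.985) and Rps28 (0.971), over libraries that fall into separate tissue clusters that also differ in depth. Rpl32 had 21.4 and 26.0 molecules per 10000 over the lung CD244+ and CD244- libraries, against 59.4 and 62.3 over the thymus CD244+ and CD244- libraries. Its molecule numbers were fractional, so that reads of near-identical copies may have been split.

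Id3, the other Id gene of T cells, was close to the limit of detection. The lung CD244+ libraries had 0, 1 and 1 molecules, the lung CD244- libraries none, the thymus CD244+ libraries none, and the thymus CD244- libraries 3, 0 and 2. Over the summed molecules of a group, a count of 0 allows up to 0.326 molecules per 10000 in lung CD244- and 0.156 in thymus CD244+ cells. Id3 did not reach the filter of a value above 1 in 3 libraries and was not tested, and all pairs of groups overlapped. In thymus, 0 molecules in CD244+ against 5 in CD244- cells gave a ratio of shares with an exact 95% interval of 0 to 1.11, too wide for these depths to show a difference. Id1 and Id4, the other members of the family, had 0 molecules in all 12 libraries.

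Tcf12, the HEB gene, was the E protein gene that varied least between groups. Lung CD244+ libraries held 6, 3 and 3 molecules, lung CD244- libraries 4, 2 and 3, thymus CD244+ libraries 7, 6 and 5, and thymus CD244- libraries 5, 8 and 6. Per 10000 molecules these are 0.839 ± 0.342, 0.981 ± 0.344, 0.935 ± 0.0470 and 0.978 ± 0.228 in the same order of groups (SD, n = 3 each). All 4 groups overlapped.

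Its differences were -0.14 ± 0.37 for lung minus thymus in CD244+ cells (95% interval -0.89 to 0.61, limma adjusted p = 0.901) and -0.01 ± 0.37 in CD244- cells (-0.76 to 0.74, limma adjusted p = 1). Subset differences were -0.16 ± 0.37 in lung (limma adjusted p = 0.864) and -0.03 ± 0.37 in thymus (limma adjusted p = 1). With so few molecules the intervals leave room for changes of either sign. The genes most like Tcf12 across the libraries were Mtf2 (Pearson r = 0.850), Rnf166 (0.838) and Zfp84 (0.789).

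Tcf3, the E2A gene, was low in lung CD244- cells. Lung CD244+ libraries held 4, 6 and 5 molecules and lung CD244- libraries 0, 1 and 1. Thymus CD244+ libraries held 6, 5 and 6 and thymus CD244- libraries 3, 7 and 7. The lung CD244- libraries were the lowest of the 12, without overlap with the other groups.

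Per 10000 molecules Tcf3 averaged 1.07 ± 0.307 in lung CD244+ and 0.214 ± 0.186 in lung CD244- cells (SD, n = 3 each). It rose in lung CD244+ over lung CD244- cells by 1.24 ± 0.40 on the log2 scale (limma adjusted p = 0.0311), and the ratio of shares was 4.83 (exact 95% interval 1.12 to 43.6). The call was lost without lung CD244+ library 2 (limma adjusted p = 0.135), lung CD244+ library 3 (0.0721) or lung CD244- library 1 (0.143), and with library 1 alone in the lung CD244+ group (0.432). It was also lost with edgeR on recovered molecules at a low filter (edgeR adjusted p = 0.259), and the adjusted p ranged from 0.000298 to 0.432 over 23 other settings. Myeloid marker sums differed between these same groups, and their part in the Tcf3 difference was not tested.

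The other Tcf3 comparisons did not pass. Thymus groups had 0.895 ± 0.145 in CD244+ and 0.885 ± 0.386 molecules per 10000 in CD244- cells (SD, n = 3 each), a log2 difference of 0.05 ± 0.40 (limma adjusted p = 1). Lung minus thymus was 0.16 ± 0.40 in CD244+ cells (limma adjusted p = 0.886) and -1.03 ± 0.40 in CD244- cells (limma adjusted p = 0.129). On the deposited scale, where thymus columns sum to 1.39 times the lung columns, the second of these became -1.24 ± 0.39 (limma adjusted p = 0.0250) while the median of all tested genes moved to -0.29. The subset difference in lung was not shown to differ from that in thymus (1.19 ± 0.56, limma adjusted p = 0.337). The genes most like Tcf3 were Evi2 (Pearson r = 0.916), Evi2b (0.895) and Map4 (0.870), and Evi2 and Evi2b carried fractional molecules, so their values may be shared.

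Tcf4, the E2-2 gene, was found almost solely in lung CD244+ cells. Their libraries held 6, 15 and 8 molecules. Lung CD244- libraries held 1, 1 and 0, thymus CD244+ libraries 0, 1 and 0, and thymus CD244- libraries 0, 1 and 0. Each lung CD244+ library lay above the other 9.

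Tcf4 averaged 2.10 ± 1.24 molecules per 10000 in lung CD244+ against 0.223 ± 0.193 in lung CD244- and 0.0525 ± 0.0910 in thymus CD244+ cells (SD, n = 3 each). It rose over lung CD244- cells by 1.89 ± 0.40 on the log2 scale (limma adjusted p = 0.000479; 29 molecules against 2, ratio of shares 9.34, exact 95% interval 2.36 to 80.8). It rose over thymus CD244+ cells by 2.30 ± 0.40 (limma adjusted p = 1.31e-05; 29 molecules against 1, ratio 39.0, interval 6.46 to 1591). Tcf4 passed the filter on low values through lung CD244+ cells alone, so it could hardly be tested without being high there. With library 1 alone in its group, Tcf4 had 1.39 ± 0.50 over lung CD244- cells (limma adjusted p = 0.140) and 1.79 ± 0.50 over thymus CD244+ cells (limma adjusted p = 0.0248). With edgeR at a low filter the same comparisons gave adjusted p = 0.0687 and 0.0117, from 9 libraries that do not include lung CD244+ library 2. Over the other settings the adjusted p for lung CD244+ against CD244- cells ranged from 1.98e-06 to 0.140.

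Myeloid and MHC class II transcripts were high in the same libraries as Tcf4. Lung CD244+ libraries 1, 2 and 3 had 1.23, 3.53 and 1.56 Tcf4 molecules per 10000, beside 59.9, 117 and 97.8 of the 12 myeloid markers and 24.2, 12.9 and 16.5 of the T cell receptor complex genes. Library 2 thus had the highest Tcf4 level, the highest myeloid sum and the lowest T cell receptor sum. The 4 MHC class II genes summed to 48.9, 70.0 and 126 in libraries 1, 2 and 3, highest in library 3. Per 10000 molecules the myeloid markers Lyz2, Cd14, Adgre1, Cd68, Fcgr3 and Itgam were also highest in library 3. Apoe, C1qa, C1qb, C1qc, Mrc1 and Csf1r were highest in library 2. Of 6 plasmacytoid dendritic cell markers Ly6d, Cox6a2 and Klk1 had none in any of the 12 libraries. Irf8, a factor of dendritic cells and macrophages, had 2, 9 and 5 molecules in lung CD244+ and none in lung CD244- libraries, against 3, 1 and 2 in thymus CD244+ and 5, 3 and 3 in thymus CD244- libraries. Siglech had 0, 2 and 3 molecules in lung CD244+ libraries and 1 molecule in the other 9 together. The list summed to 0.614 to 2.59 in lung CD244+, 0.311 to 1.01 in lung CD244-, 0.315 to 0.418 in thymus CD244+ and 0.665 to 1.19 in thymus CD244- libraries. The B cell markers Pax5, Ebf1 and Cd22 had none in lung CD244+ cells. The part of myeloid RNA in the Tcf4 difference was not tested.

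**Figure D2:**
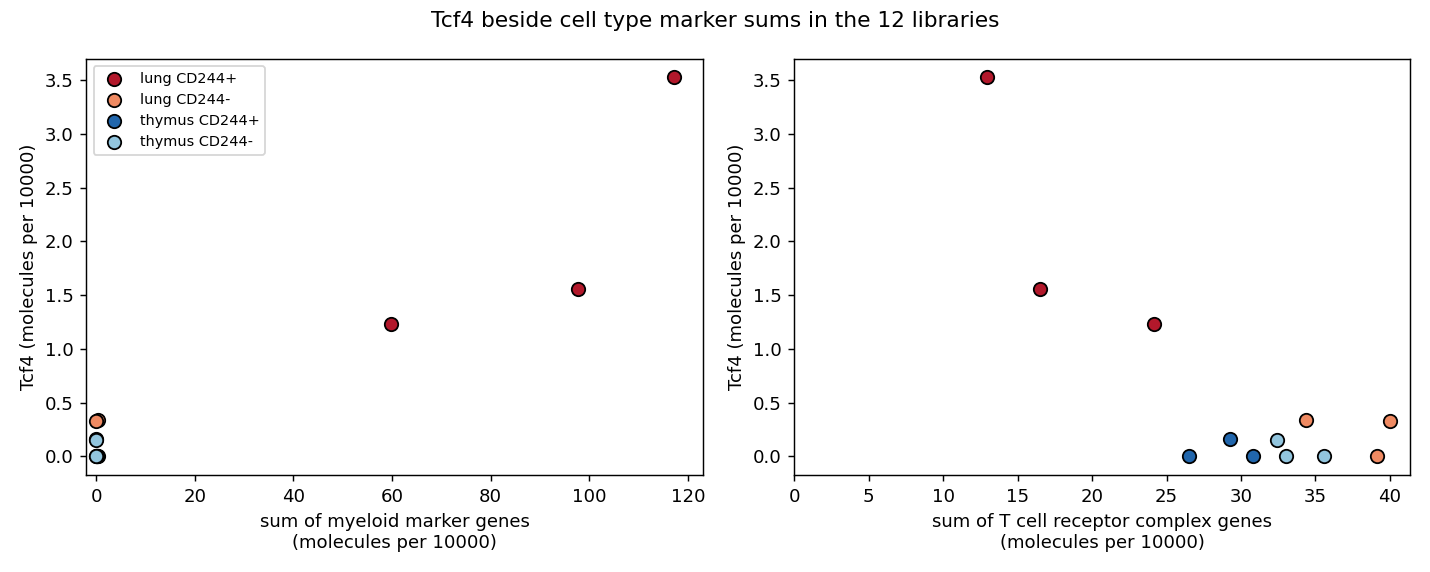
Tcf4 level (vertical axes, molecules per 10000) against the summed level of 12 myeloid markers (left) and of 11 T cell receptor complex genes (right) in each of the 12 libraries, coloured by group. The 3 lung CD244+ libraries have myeloid sums of 59.9 to 117 and Tcf4 levels of 1.23 to 3.53, apart from the other 9 libraries.

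The genes most like Tcf4 over the 12 libraries were Klf4 (Pearson r = 0.972), Csf1r, the receptor gene of the macrophage growth factor CSF1 (0.966), and the fibronectin gene Fn1 (0.962). Csf1r is on the myeloid list and had 85 molecules in lung CD244+, 1 in lung CD244- and none in thymus cells. These coefficients rest on a group of 3 libraries set apart from the rest. Tcf7l2, named here after its values were seen because of the shared alias, had 5, 0 and 5 molecules in the lung CD244+ libraries and none elsewhere.

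The subset difference of Tcf4 in lung minus that in thymus was 1.89 ± 0.57 (SE, limma adjusted p = 0.0470). It missed the threshold in 15 of 22 other settings, with adjusted p from 0.00288 to 0.989. Without 1 of 9 libraries it was lost, namely thymus CD244+ library 1, 2 or 3 (limma adjusted p = 0.125, 0.0627, 0.119), thymus CD244- library 1, 2 or 3 (0.0789, 0.152, 0.0842), lung CD244+ library 2 or 3 (0.175, 0.0514) or lung CD244- library 3 (0.128). Averaged over both tissues, Tcf4 was 0.95 ± 0.29 higher in CD244+ cells (limma adjusted p = 0.0343). The subset difference was 1.89 ± 0.40 in lung and 0.01 ± 0.40 in thymus, where each subset had 1 molecule. The average thus came from lung and shows no difference shared by both tissues. Tcf4 also passed the filter through lung CD244+ cells alone, so nothing is read from this averaged call. That call was lost without thymus CD244+ library 1, 2 or 3 (limma adjusted p = 0.0557, 0.108, 0.0561), thymus CD244- library 1 or 3 (0.0894, 0.0909), lung CD244+ library 2 (0.131) or lung CD244- library 3 (0.0952). Averaged alike, Id2 (-0.19 ± 0.13, limma adjusted p = 0.518), Tcf3 (0.65 ± 0.28, 0.205) and Tcf12 (-0.10 ± 0.26, 0.911) did not pass.

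**Figure D3:**
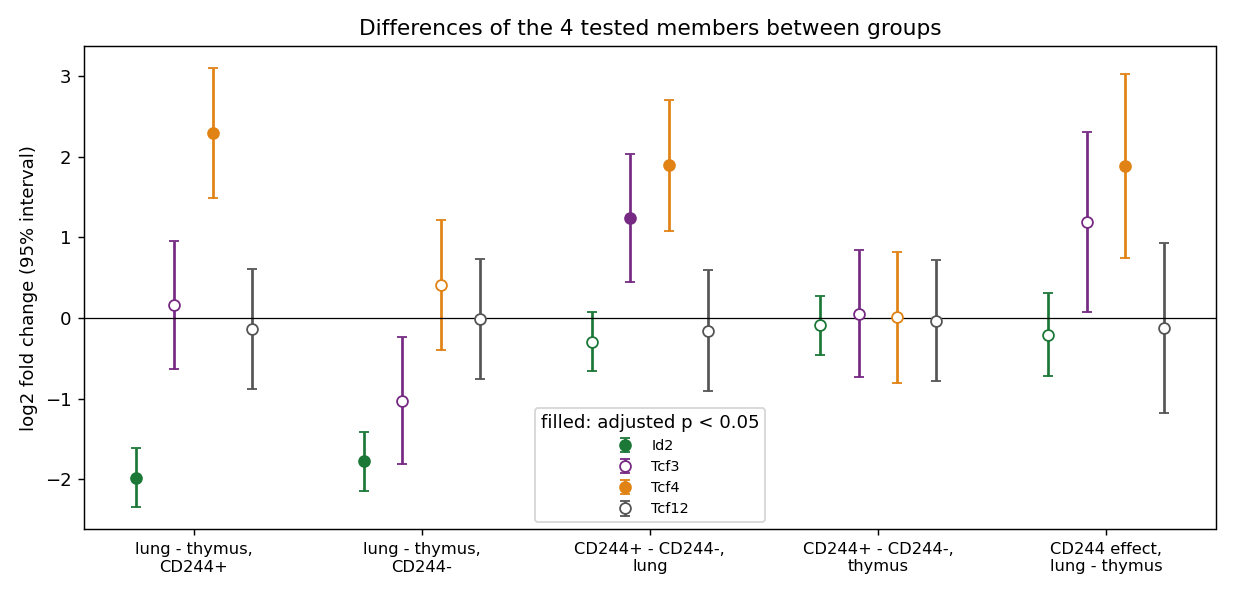
Log2 fold changes (vertical axis) of Id2, Tcf3, Tcf4 and Tcf12 in 5 comparisons (horizontal axis); points are limma estimates, lines 95% intervals, and filled points have an adjusted p under 0.05. Id2 is at -1.98 and -1.78 for lung minus thymus, Tcf4 at 2.30 and 1.89 in the comparisons of lung CD244+ cells, and Tcf12 near 0 throughout.

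Set against the whole table, 2 of the 4 tested members passed for lung minus thymus in CD244+ cells (Id2 lower, Tcf4 higher), where 10.9% of all 5199 tested genes did, 6.96% higher and 3.96% lower. In CD244- cells 1 passed (Id2, lower), where 5.98% of genes did, 3.1% higher and 2.89% lower. For CD244+ minus CD244- cells 2 passed in lung (Tcf3 and Tcf4, both higher), where 9.89% did, 6.44% higher and 3.44% lower. In thymus 0 passed with limma, where 0.269% of genes did, 0.212% higher and 0.0577% lower, and 0 members had an unadjusted p under 0.05 or passed with edgeR at the low filter. Tcf4 alone passed in the average over tissues, where 5.15% of genes did (3.73% higher, 1.42% lower). It alone passed in the difference of subset effects between tissues, where 3.6% did (2.98% higher, 0.616% lower). Since Tcf4 entered the tested genes through the 3 lung CD244+ libraries where it is high, nothing is read from its part in these counts.

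The number of Id molecules per E protein molecule followed from these levels. Id2 and Id3 together, divided by Tcf3, Tcf4 and Tcf12 together, gave 1.56, 0.75 and 1.5 in lung CD244+ libraries 1, 2 and 3, and 3.4, 5 and 3.75 in lung CD244- libraries. The thymus CD244+ libraries had 10.4, 9.67 and 10.5 and the thymus CD244- libraries 18.7, 8.94 and 8.54. Lung values lay below thymus values in every library, and lung CD244+ below lung CD244-. Over each group's summed molecules the ratios were 1.20 in lung CD244+ (exact 95% interval 0.826 to 1.74), 4 in lung CD244- (2.15 to 8.01), 10.2 in thymus CD244+ (7.21 to 14.7) and 10.9 in thymus CD244- cells (7.79 to 15.7). No test was made on this ratio, which counts RNA and not protein. In lung CD244+ libraries it includes Tcf4, which was high beside the myeloid markers, and the part of myeloid RNA in the ratio was not tested.

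**Figure D4:**
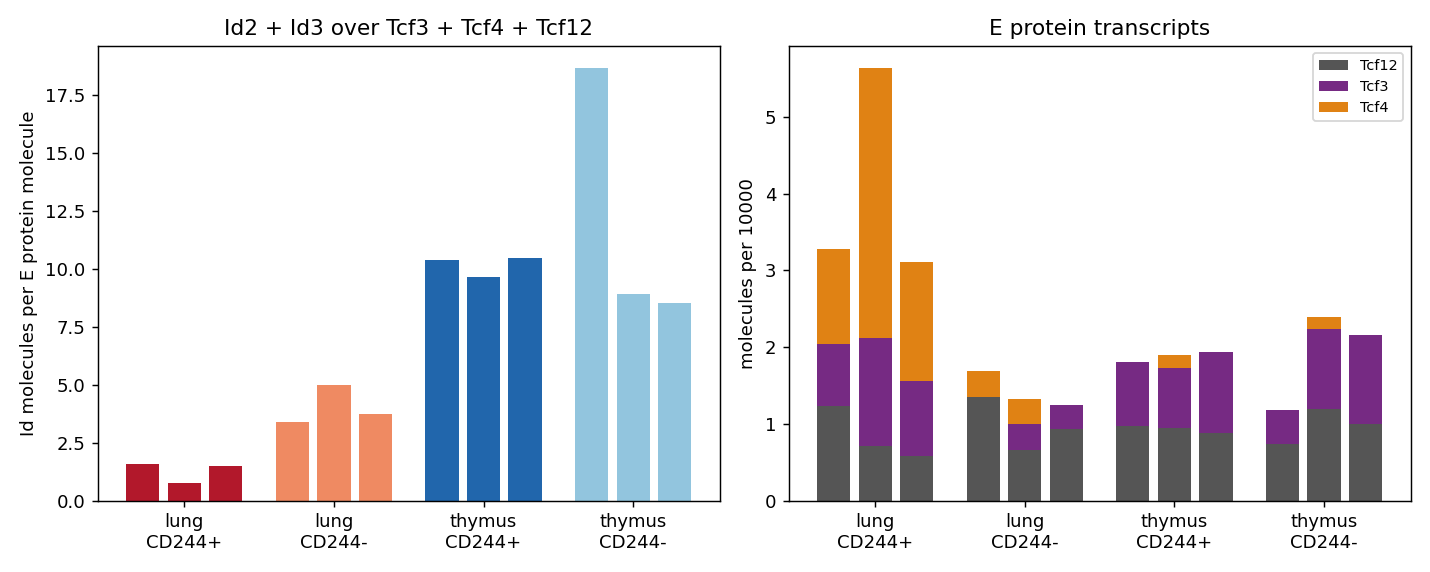
Left, Id molecules (Id2 + Id3) per E protein molecule (Tcf3 + Tcf4 + Tcf12) in each library (vertical axis, ratio), and right, E protein molecules per 10000 stacked by gene, with 3 libraries per group on the horizontal axes. Ratios are 0.75 to 1.56 in lung CD244+ and 8.54 to 18.7 in thymus CD244- libraries, and Tcf4 makes up 51.8% of E protein molecules in lung CD244+ cells.

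Id molecules summed to 4.67 ± 0.442 per 10000 in lung CD244+, 5.67 ± 0.989 in lung CD244-, 19.1 ± 1.05 in thymus CD244+ and 20.7 ± 1.95 in thymus CD244- cells (SD, n = 3 each). Per 10000 molecules, lung CD244+ libraries had fewer Id and more E protein molecules than thymus CD244+ libraries. Of the E protein genes, Tcf4 averaged 2.10 against 0.0525, Tcf3 1.07 against 0.895 and Tcf12 0.839 against 0.935 in these groups. The higher E protein sum thus lay in Tcf4, in libraries with high myeloid marker sums, whose part was not tested. E protein molecules summed to 4.01 ± 1.42 per 10000 in lung CD244+, 1.42 ± 0.234 in lung CD244-, 1.88 ± 0.0666 in thymus CD244+ and 1.91 ± 0.641 in thymus CD244- cells (SD, n = 3 each). Of these molecules Tcf4 made up 51.8% in lung CD244+, 15.4% in lung CD244-, 2.78% in thymus CD244+ and 2.70% in thymus CD244- cells. Tcf12 made up 21.4%, 69.2%, 50% and 51.4% in the same order, and in lung CD244- cells 9 of 13 E protein molecules were Tcf12.

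Other genes of the pathway were taken as lists. Of 20 partners and cofactors, 8 were tested, and the dimer partners Tal1, Tal2 and Msc had no molecule in any library. Bhlhe40, a basic helix-loop-helix repressor of activated T cells, was higher in lung CD244- than in thymus CD244- cells, with 20 molecules against 4 (log2 fold change 2.07 ± 0.40 SE, limma adjusted p = 0.000151). It was the only list member past the threshold in that comparison (1 higher, 0 lower, median log2 fold change 0.38 against -0.03 over all tested genes). There 5.98% of all tested genes passed. For lung minus thymus in CD244+ cells 0 of 8 passed with limma (median 0.30 against 0.0016), with 1 at an unadjusted p under 0.05 and 0 past the threshold with edgeR at the low filter. Lmo4, a LIM-only adaptor, was lower in lung CD244+ than in lung CD244- cells (-1.01 ± 0.34, limma adjusted p = 0.0488), with 31 molecules against 44. That call was lost in 8 of the 12 fits that left out a library (adjusted p 0.0145 to 0.374) and with library 1 alone (0.602). With receptor complex scaling the difference was -0.05 (adjusted p = 0.933), and with edgeR -0.65 and -0.55 at the default and low filters (edgeR adjusted p = 0.315 and 0.581). In thymus 0 of 8 passed with limma for the subsets, with 1 at an unadjusted p under 0.05 and 0 past the threshold with edgeR at the low filter.

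Of 22 genes known as targets of E proteins in developing T cells and iNKT cells, 12 were tested. Il7r, the interleukin 7 receptor gene, fell in lung in both subsets. It averaged 4.43 ± 1.99 molecules per 10000 in lung CD244+ against 13.5 ± 2.84 in thymus CD244+ cells (-1.60 ± 0.24, limma adjusted p = 2.88e-07), and 4.38 ± 1.10 in lung CD244- against 10.5 ± 0.336 in thymus CD244- cells (-1.21 ± 0.24, limma adjusted p = 0.000197; SD, n = 3 each). In CD244- cells it was 1 lower and 0 higher of 12, where 5.98% of all tested genes passed. The list median was 0.27 against -0.03 over all tested genes. In CD244+ cells 3 were higher and 2 lower, beside the rise in myeloid markers, with a median of -0.00074 against 0.0016. There 10.9% of all tested genes passed. Of those higher, Socs3 and Cdkn1a exceeded the filter in lung CD244+ libraries alone, so nothing is read from their part in the count. With library 1 alone Il7r in CD244+ cells had -1.16 ± 0.27 (limma adjusted p = 0.00611).

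For CD244+ minus CD244- cells in lung, 2 targets were higher and 1 lower, where 9.89% of all tested genes passed (list median -0.23 against 0.0041). This was again beside the myeloid markers, whose part was not tested. The cytokine signalling inhibitor gene Socs3 had 41 molecules in lung CD244+ against 2 in lung CD244- cells (limma adjusted p = 5.14e-06), and the cell cycle inhibitor gene Cdkn1a 34.5 against 1 (limma adjusted p = 1.07e-05). Both genes exceeded the filter in lung CD244+ libraries alone, so they could hardly be tested without being high there, and nothing is read from their part in the count. With library 1 alone Socs3 had an adjusted p = 0.0093 and Cdkn1a 0.00726. Gata3 fell (-1.73 ± 0.31, limma adjusted p = 1.99e-05), with 17 molecules against 43, and missed the threshold with library 1 alone (adjusted p = 0.0989). In thymus 1 target passed, where 0.269% of all tested genes did, with a list median of -0.17 against -0.01. It was Lef1, with 4 molecules in thymus CD244+ and 28 in thymus CD244- cells (-1.62 ± 0.38, limma adjusted p = 0.0271). That call was lost without thymus CD244+ library 2 or 3 (adjusted p = 0.126, 0.358) or thymus CD244- library 2 or 3 (0.322, 0.157). It was also lost with edgeR at the default and low filters (edgeR adjusted p = 0.0849 and 0.0746), no filter (0.0677), receptor complex scaling (0.147) and pseudocount 5 (-0.61, adjusted p = 0.229). Zbtb16, the gene of the iNKT factor PLZF, had 3 molecules in lung CD244+, 8 in lung CD244-, 13 in thymus CD244+ and 25 in thymus CD244- cells and passed no comparison. Rag1 and Rag2 had none in any library.

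Of 18 genes upstream of the Id genes, 15 were tested. Egr1, an immediate early factor of receptor signalling, had 49 molecules in lung CD244+, 3 in lung CD244-, 2 in thymus CD244+ and 14 in thymus CD244- cells. It rose in lung CD244+ over lung CD244- cells (2.42 ± 0.41, limma adjusted p = 8.98e-06) and over thymus CD244+ cells (2.83 ± 0.41, limma adjusted p = 2.06e-07). Egr1 was the only list member past the threshold in either comparison, where 9.89% and 10.9% of all tested genes passed. With library 1 alone these comparisons had adjusted p = 0.0629 and 0.0122. The myeloid markers were high in the same libraries, and their part was not tested. None of the Smad, Tgfb and Bmp receptor genes tested passed with limma in any of the 6 comparisons. For lung minus thymus in CD244- cells, where Id2 fell, 0 of 15 upstream genes passed with limma, 2 had an unadjusted p under 0.05 and 0 passed with edgeR at the low filter. For the subsets in thymus 0 of 15 passed with limma, with 1 at an unadjusted p under 0.05 and 0 with edgeR.

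Of 13 effector genes studied with Id2 and Id3 in T cells, 10 were tested. For lung minus thymus, 0 were higher and 3 lower in CD244+ cells (list median -0.69 against 0.0016), and 0 higher and 1 lower in CD244- cells (-0.0043 against -0.03), where 10.9% and 5.98% of all tested genes passed. The 3 lower in CD244+ cells were Cxcr6, Bcl2 and Il2rb, and with library 1 alone each lost its call (limma adjusted p = 0.372, 0.0977 and 0.428). With receptor complex scaling Bcl2 had -0.56 (adjusted p = 0.285) and Il2rb -0.0059 (adjusted p = 0.992). Lung CD244+ libraries had high myeloid and low T cell receptor complex sums, whose part was not tested. The gene lower in CD244- cells was Gzmb, the granzyme B gene, with 11 molecules in lung and 77 in thymus (-1.47 ± 0.28, limma adjusted p = 0.000105). For CD244+ minus CD244- cells, 2 effector genes were higher and 3 lower in lung, where 9.89% of all tested genes passed, beside the same marker sums. In thymus 1 was higher, where 0.269% passed. Of those lower in lung, Il2rb had an adjusted p = 0.0929 with library 1 alone and turned to 0.027 with receptor complex scaling, under which Bcl2 had -0.42 (adjusted p = 0.366). Gzma, the granzyme A gene, rose in both, with 124 molecules in lung CD244+ against 4 in lung CD244- cells (limma adjusted p = 7.74e-09) and 98.25 in thymus CD244+ against 3.25 in thymus CD244- cells (limma adjusted p = 3.35e-08). With library 1 alone the lung comparison of Gzma had an adjusted p = 9.58e-06. Tbx21, the gene of the T-bet factor of NKT1 cells, had 14, 12, 36 and 29 molecules in lung CD244+, lung CD244-, thymus CD244+ and thymus CD244- cells and passed no comparison.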

How the data were processed

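The deposited table gives, for each of 24781 gene symbols and 12 libraries, a signal that the authors made from molecule counts. STAR and the build mm10 are named per the submitters' processing notes, and per the labels' protocols molecular barcodes and ERCC spike-ins were used. The counting step, annotation and scaling are not given in the sources used here. The columns of this deposited signal sum to 26890.5 units in thymus and 19342.9 in lung. Molecules were recovered by dividing each column by its most frequent nonzero value, of which 94.3% to 95.9% of nonzero values were whole multiples (tolerance 1e-06).

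Columns were rescaled to a common total of 23116.7 units, and log2(value + 1) of genes above 1 in at least 3 libraries was fitted in one limma 3.58.1 model with 4 groups (trend and robust, R 4.3.3). P-values were two-sided with Benjamini-Hochberg adjustment over 5199 genes at a threshold of 0.05. The table held no raw counts, so the count test was an alternative only, edgeR 4.0.16 (quasi-likelihood, TMM) on the 9 libraries in which whole molecules could be checked. edgeR called 13 to 303 genes of 1156 per comparison. With 3 libraries a side, the smallest exact permutation p would be 0.1. Intervals on ratios of molecules are exact 95% binomial intervals for counting error only, with a floor of 3 molecules.

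The 5 members are all named. Beside them are named, per member, the 3 genes of highest Pearson r, and up to 4 list members per comparison with the smallest p past the threshold, not all of which are printed. Zbtb16 and Tbx21 were added after their values were seen. Members and lists were chosen with earlier results of these data known. The fits were tested on simulated data in which 100 genes rose 2-fold and 100 rose 4-fold, at an assumed dispersion of 0.01. The raised genes were drawn from those expected to have at least 3 molecules in the smallest library. Tcf3, Tcf4 and Tcf12 lie under that level, so the recovery rates do not cover them. For the subsets in thymus 22% of the 2-fold and 95% of the 4-fold genes were recovered, with 9 false calls among 5199 genes. For lung minus thymus in CD244- cells 19% and 94% were recovered, with 40 false calls. Most 2-fold changes were thus missed. Alternatives were other scalings, filters, pseudocounts and weights, leaving out each library, fitting the compared libraries by themselves, and a replicate block. The low edgeR filter and lung CD244+ library 1 alone were chosen after seeing the data.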

Additional observations from a re-analysis of the deposited data

Results flagged for a closer look

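Tcf4 was singled out by a test of the difference between tissues: the CD244+ minus CD244- difference in lung minus that in thymus was 1.89 ± 0.57 on the log2 scale (SE, interaction term, limma adjusted p = 0.0470). Tcf4 passed the filter on low values through lung CD244+ cells alone, so it could hardly be tested without being high there, and nothing is read from this p-value. The call held in 7 of 22 other settings, with adjusted p up to 0.989, and was lost without any one of 9 libraries. The libraries held 6, 15 and 8 Tcf4 molecules in lung CD244+, 1, 1 and 0 in lung CD244-, 0, 1 and 0 in thymus CD244+ and 0, 1 and 0 in thymus CD244- cells. The sum of 12 myeloid markers was 59.9 to 117 molecules per 10000 in lung CD244+ libraries and at most 0.337 in the others, and its part in the Tcf4 difference was not tested.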

How the results depend on the processing

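Of the members' values under other settings, 603 kept their side of the threshold, 40 lost the call, 2 gained one, 6 moved and 1 turned round with a call. A change of sign without a call before or after was counted as kept. An example is Id2 between the subsets in thymus, at -0.09 in the main fit and 0.13 with receptor complex scaling. For the untested Id3, values counted as kept or moved by their distance from the main value. The Id2 tissue calls were past the threshold in all 25 settings and the Tcf4 call for lung minus thymus in CD244+ cells in all 23. Since Tcf4 passed the filter on low values through lung CD244+ cells alone, nothing is read from how often its call held. Id2 in lung turned to 0.75 when columns were scaled to T cell receptor complex genes, and so did Il2rb in lung (0.027) and averaged over tissues (0.057), where that scaling moved the median of all genes to 0.69 in lung and 0.40 averaged.

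Tcf3 in lung lost its call on the deposited scale (1.13), with quantile normalization (1.02), no filter (1.24), pseudocount 5 (0.44), array weights (1.23), the compared libraries by themselves (1.24), edgeR at the low filter (2.17) and lung CD244+ library 1 alone (0.998), and ranged from 0.97 to 1.38 with a library left out. Tcf4 in lung lost its call with edgeR at the low filter (2.79) and library 1 alone (1.39). Tcf4 averaged over tissues lost it with quantile normalization (0.85), no filter (0.95), pseudocount 0.5 (1.20), edgeR at the low filter (2.46) and library 1 alone (0.70), with 0.76 to 1.08 when a library was left out. The Tcf4 difference between tissues lost it on the deposited scale (1.75), with quantile normalization (1.71), no filter (1.89), pseudocount 0.5 (2.39), edgeR at the low filter (0.66) and library 1 alone (1.38), with 1.51 to 2.14 when a library was left out. Tcf3 gained a call averaged over tissues under receptor complex scaling (1.08) and for lung minus thymus in CD244- cells on the deposited scale (-1.24). The untested Id3 moved with the pseudocounts 0.5 and 5, to -0.99 and -0.16 for the subsets in thymus and likewise for lung minus thymus in CD244- cells, and to 1.65 and 0.25 for their difference between tissues. The cause was not tested.

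Genes past the threshold numbered 14 for the subsets in thymus (35 with array weights, 22 with the compared libraries by themselves, 9 to 19 with a library left out) and 514 in lung (1579 with receptor complex scaling, 264 with the stricter filter, 338 with array weights, 183 and 290 with edgeR at the default and low filters, 197 with library 1 alone, 375 to 513 with a library left out). Averaged over tissues they numbered 268 (989 with receptor complex scaling, 164 with the stricter filter, 75 and 83 with edgeR, 152 with library 1 alone, 205 to 302 with a library left out), and for the difference between tissues 187 (423, 111, 24 and 22, 81, and 137 to 223 in the same settings). For lung minus thymus they numbered 568 in CD244+ cells (937 with receptor complex scaling, 360 with the stricter filter, 303 with edgeR at the default filter, 307 with library 1 alone, 446 to 606 with a library left out) and 311 in CD244- cells (550 on the deposited scale, 181 with receptor complex scaling, 210 to 317 with a library left out).

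Same-numbered libraries deviated from their group means with correlations of -0.03 to 0.01 over 18 pairs, and differently numbered ones with -0.04 to 0.03 over 36. No pairing by number was seen. With few molecules for most genes, these correlations cannot tell whether equal numbers share an animal. With the replicate block 12, 511, 263, 185, 561 and 306 genes passed, in the order of comparisons above, and no member's call changed. Depth limits the rare members: Id3 had 7 molecules in all, and Tcf3, Tcf4 and Tcf12 had at most 15 in a library. edgeR at the default filter and the stricter filter gave values for Id2 alone among the members.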
